A study of Mus musculus with 4 samples.

Results

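The integrins and the numbered cadherins were followed in mouse embryonic stem cells that express the fusion NUP98-HOXA9. The members are the protein-coding genes whose symbol begins with Itga, is Itgb with a single digit, or is Cdh with a number, leaving out Cdh5. There were 48 of them (18 integrin alpha, 8 integrin beta and 22 cadherin genes) among the 55401 gene identifiers in the tables. The rule uses gene names only, but it was proposed with earlier results of these data in view.

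Integrins are receptors for the matrix, each made of 1 alpha and 1 beta chain, and the alpha chain largely sets the ligand: laminin for α3, α6 and α7, collagen for α1, α2, α10 and α11, and proteins with an arginine-glycine-aspartate (RGD) motif, such as fibronectin and vitronectin, for α5, α8, αv and αIIb. Classical cadherins join neighbouring cells through calcium-dependent contacts and bind catenins inside the cell. In the early embryo E-cadherin (Cdh1) holds the pluripotent epiblast together as an epithelium, while the endoderm beside it lays down a basement membrane of laminin and collagen IV that integrins bind.

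The cells were of the EB3 line, kept on gelatin with serum and LIF, the cytokine that maintains the undifferentiated state. There was 1 library of the parental line (genotype WT), 1 of EB3-derived cells with an empty vector (also wild type) and 2 of EB3-derived cells with NUP98-HOXA9 (fusion replicates 1 and 2), all by poly(A) mRNA sequencing. NUP98-HOXA9 joins the phenylalanine-glycine repeats of a nucleoporin to the homeodomain of HOXA9 and is known from acute myeloid leukaemia. The sources used here give neither the promoter that drives it nor whether its libraries come from different clones or cultures. The p-values therefore cover only the spread among these libraries, which may be technical. Only 1 library controls for the vector.

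The libraries held 19021386 to 21151729 estimated counts. Levels are given as CPM, counts scaled to library size. Hoxa9, whose sequence the fusion carries in part, read 0, 0, 190 and 127 CPM (parental, empty vector, then the fusion replicates). As a check of the cell type, 8 pluripotency markers summed to 4671 CPM (parental), 4930 (empty vector), 5284 and 5264 CPM (fusion). Of these genes 0 passed the test used below, with 2 higher and 1 lower at an unadjusted p under 0.05 in edgeR and 2 higher in DESeq2. Genes of 2 chromosomes stood apart in 1 library each. On chromosome 8 the parental library lay a median 0.40 (log2) above the mean of the other 3 libraries over 616 genes, and on chromosome 15 fusion replicate 1 lay 0.34 above over 452 genes. Medians of the other chromosomes lay between -0.11 and 0.12 in every library. Cdh1, Cdh3 and Itgb1 lie on chromosome 8, and Itga5, Itgb7 and Cdh6 on chromosome 15, so their values are also given with these medians removed, a fit added after seeing the data.

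Fusion cells carried more RNA for the integrin chains α5, α3 and β3 and for the type II cadherin Cdh6, and less for P-cadherin (Cdh3). Of the 48 members 32 had enough counts to be tested with edgeR's quasi-likelihood test over 16511 genes. Of these, 4 (12.5%) rose and 1 (3.12%) fell past a Benjamini-Hochberg adjusted p of 0.05. Over all genes tested, 2.83% were called higher, 0.581% lower and 3.42% in either direction. By DESeq2 5 members were higher and 2 lower, against 5.57% and 2.64% of all genes. At an unadjusted p under 0.05 in edgeR 7 were higher and 5 lower, against 12.7% and 7.41%. The shares are a description, and they hold Cdh6, which met the filter on low counts only through the fusion libraries. The median log2 fold change was 0.18 for the tested members and -0.003 for all genes tested. Among the 32, 5 had a wild-type mean under 1 CPM. In bulk RNA, fewer cells with a transcript and less of it per cell cannot be told apart.

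**Figure D1:**
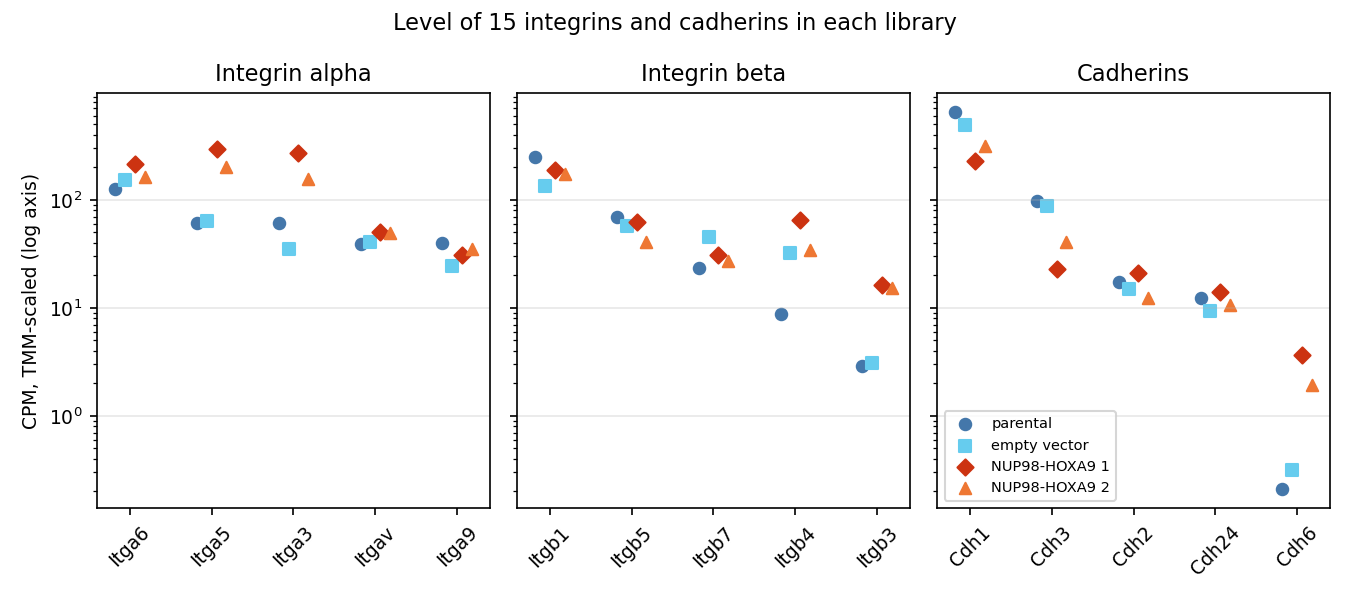
Level of 15 integrins and cadherins in CPM scaled by edgeR's TMM factors (log axis), 1 point per library, in panels of alpha chains, beta chains and cadherins. Itga5 and Itga3 lie at 156 CPM or more in both fusion libraries and at 64.1 CPM or less in both wild-type libraries, while Cdh1 and Cdh3 lie lower in both fusion libraries.

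Itga5 encodes the α5 chain, which pairs with β1 as the main fibronectin receptor. The gene lies on the minus strand at chr15:103344286-103366763 (GRCm38). It stood at 60.5 CPM in the parental, 64.1 in the empty-vector, 292 in the fusion replicate 1 and 199 in the fusion replicate 2 library. Both fusion libraries thus lay far above both controls, which differed 1.06-fold. The fusion was 1.98 higher on the log2 scale (SE 0.23, adjusted p = 0.0118, edgeR). With chromosome medians removed it was 1.82 (adjusted p = 0.00617). It stayed past the threshold without each library in turn, with adjusted p from 0.0104 to 0.0381, and against a single control it had an adjusted p of 0.0608 (empty vector) and 0.0563 (parental). Itga5 lies 307 kb from Hoxc4, the nearest Hox gene. Within 500 kb of it 16 other protein-coding genes were tested, of which Hoxc4, Hoxc6 and Hoxc10 rose and 0 fell. Over all genes tested 2.83% were called higher.

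Itga3 encodes α3, which pairs with β1 as a receptor for laminins with the α5 and α3 chains. The gene lies on the minus strand at chr11:95044474-95076801. It stood at 60.6 (parental), 35.4 (empty vector), 270 (fusion replicate 1) and 156 CPM (fusion replicate 2). The groups did not overlap, although the controls differed 1.71-fold and the fusion libraries 1.73-fold. On the log2 scale the rise was 2.15 (SE 0.35, adjusted p = 0.0298, edgeR). The adjusted p was 0.0622 without the empty-vector library and 0.107 without fusion replicate 1. The nearest Hox gene, Hoxb13, lies 1118 kb away. Of 21 other protein-coding genes tested within 500 kb of Itga3, Acsf2, Dlx3 and Tmem92 rose and 0 fell.

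Itgb3 encodes β3, which pairs with αv as a vitronectin receptor and with αIIb on platelets. The gene lies on the plus strand at chr11:104608000-104670476. Its 4 values were 2.87, 3.08, 16.1 and 15.4 CPM, with the parental library first, the empty vector second and the fusion replicates last, an order kept below. Libraries of each group differed by at most 1.07-fold. The log2 fold change was 2.40 (SE 0.31, adjusted p = 0.0153, edgeR), with an adjusted p of 0.0735 without fusion replicate 1. Of 6 marker genes of platelets, 3 (Pf4, Gp9 and Gp6) were at 0 in all 4 libraries, and the 6 together summed to at most 0.301 CPM in any library. Of 6 other protein-coding genes tested within 500 kb of Itgb3, Myl4 rose and 0 fell.

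Cdh6, a type II cadherin known from kidney and neural crest, lies on the minus strand at chr15:13028701-13173675. Its values were 0.208, 0.318, 3.66 and 1.92 CPM, low throughout and higher in both fusion libraries. Its log2 fold change was 3.37 (SE 0.62, adjusted p = 0.0382, edgeR) and 3.20 with chromosome medians removed (adjusted p = 0.0321). The wild-type libraries held 4 and 6 counts, so the filter on low counts was met by the fusion libraries. The adjusted p was 0.0871 without the parental library, 0.0571 without the empty-vector library and 0.177 without fusion replicate 1, and limma on log2 TPM plus 1 gave a log2 fold change of 0.60 (adjusted p = 0.151).

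Sequence upstream of the start site is shown for the members that rose, to let the promoters of 3 genes that moved together be compared. Of the 48 members 31 had an entry in the RefSeq promoter table (GRCm38.p6). Itgb3 had none. The lines run 5′ to 3′ on the gene's own strand and stop before the annotated gene. Capitals mark GGGCGG or its reverse complement CCGCCC (the GC box bound by Sp factors), and CAGGTG or CACCTG (the E-box core that SNAI and ZEB repressors bind), searched on both strands. The windows are chr15:103366792-103367041 for Itga5, chr11:95076802-95076964 for Itga3 and chr15:13173676-13173925 for Cdh6.
Itga5: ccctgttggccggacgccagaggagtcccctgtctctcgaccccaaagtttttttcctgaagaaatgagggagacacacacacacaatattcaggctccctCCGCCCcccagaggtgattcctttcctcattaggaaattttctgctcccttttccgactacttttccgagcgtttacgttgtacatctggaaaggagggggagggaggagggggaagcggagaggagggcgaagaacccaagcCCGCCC
Itga3: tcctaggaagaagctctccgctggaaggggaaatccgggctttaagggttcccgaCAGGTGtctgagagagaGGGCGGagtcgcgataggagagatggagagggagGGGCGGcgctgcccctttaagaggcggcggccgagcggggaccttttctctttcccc
Cdh6: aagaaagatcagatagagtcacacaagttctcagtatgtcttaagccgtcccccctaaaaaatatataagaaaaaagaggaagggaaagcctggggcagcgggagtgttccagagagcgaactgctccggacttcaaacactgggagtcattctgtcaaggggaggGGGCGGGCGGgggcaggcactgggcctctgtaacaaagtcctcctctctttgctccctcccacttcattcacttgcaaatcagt
In the full 250 bases before the RefSeq start, the GC box was found 2 times for Itga5, 3 times for Itga3 and 2 times, overlapping, for Cdh6. Of 32851 windows of the same length in the table, 32.7% held at least 1, and 11 of the 31 members did. CAGGTG or CACCTG was found once for Itga3 and not for Itga5 or Cdh6. It occurred in 17.2% of all windows and in 6 of the 31 members. TTTAT or ATAAA, the core of posterior Hox sites, occurred in 37.3% of all windows, in 6 of the 31 members and in none of these 3. A match is a description of letters in the window.

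The other chains of laminin and RGD receptors did not pass. Itga6, whose α6 chain binds laminin with β1 or β4, stood at 125, 152, 215 and 161 CPM (log2 0.44, SE 0.21, adjusted p = 0.305, edgeR). Itgav, which encodes αv, stood at 39, 41, 50.7 and 49.4 CPM (log2 0.32, SE 0.19, adjusted p = 0.406). In both genes the fusion libraries lay above the controls without passing the test. Itga7, the third laminin-binding alpha chain, lay between 3.29 and 8.12 CPM, and Itga2b (αIIb) between 2.24 and 6.57 CPM. Itga8, an RGD-binding chain that binds nephronectin, ranged from 1.09 to 4.51 CPM within the controls alone. Itga9, which encodes the tenascin-binding α9, overlapped between groups at 39.6, 24.4, 30.8 and 35.1 CPM.

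Collagen-binding alpha chains were rare in all 4 libraries. Itga1 stood at 3.96, 3.66, 1.303 and 2.51 CPM (log2 -0.99, adjusted p = 0.308) and Itga10 at 1.15, 1.33, 3.16 and 2.69 CPM (log2 1.24, adjusted p = 0.185, edgeR). The fusion libraries lay below the controls for the first and above them for the second. Itga2 and Itga11 stayed at or under 0.638 CPM and were not tested.

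Among beta chains, Itgb1 is the partner shared by most of these alpha chains. It stood at 247, 134, 188 and 175 CPM, so the parental library was highest, the empty-vector library lowest and the fusion libraries between them. Its log2 fold change was -0.07 (SE 0.29, adjusted p = 0.928, edgeR) and 0.17 with chromosome medians removed, and its sign changed in 6 of 15 alternatives. Itgb4, the β4 chain that pairs with α6 in hemidesmosomes, stood at 8.80, 31.9, 65.4 and 34.3 CPM. Its controls differed 3.62-fold, and fusion replicate 2 was 34.3 CPM against 31.9 in the empty-vector library. The log2 fold change of 1.29 (SE 0.58) had an adjusted p of 0.274, and of 0.0444 without the empty-vector library (log2 2.48). Itgb5, a partner of αv, stood at 69.7, 57.3, 62.2 and 41.0 CPM (log2 -0.30, adjusted p = 0.583). Itgb7, known as a partner of α4 and αE on lymphocytes, stood at 23.2, 44.8, 30.6 and 27.4 CPM (log2 -0.23, adjusted p = 0.760, and -0.37 with chromosome medians removed, adjusted p = 0.614, edgeR).

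Of 3 tested leukocyte alpha chains 0 were called. Itgal, the α chain of LFA-1, stood at 6.35, 6.95, 3.96 and 4.83 CPM, Itgam at 0.729, 1.70, 2.41 and 3.33 CPM, and Itgae at 1.25 to 2.28 CPM. The β2 chain gene Itgb2, whose product pairs with those of Itgal and Itgam, read 0.156, 1.96, 0.602 and 0.502 CPM and was highest in the empty-vector library. Itgax had 0 counts in all 4 libraries and Itgad at most 0.106 CPM. Of 9 leukocyte markers 4 were tested and 0 called. Cd48 was at 0 throughout and Ptprc, which encodes CD45, at most at 0.156 CPM. Laptm5 read 43.9, 118, 384 and 105 CPM, Coro1a 8.96, 8.70, 6.27 and 8.89 CPM, Lcp1 0.990, 1.17, 1.70 and 1.78 CPM, and Vav1 1.04, 1.38, 3.96 and 1.73 CPM. Both fusion libraries lay above both controls for Lcp1 and Vav1, and the part of such cells in the values of the leukocyte integrins was not tested. Itga4 lay between 0.365 and 1.01 CPM. Itgb6 and Itgb8 stayed under 1 CPM and were not tested.

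Levels can be set between genes only per transcript length, as TPM (transcript copies scaled to a fixed total). Itga6 led the alpha chains in wild-type cells with 53.7 and 66.9 TPM, before Itga5 (20.6 and 23.4), Itga3 (18.2 and 11.2), Itgav (12.7 and 16.3) and Itga9 (16.0 and 11.9). Only Itga6 stood clear of the rest. In fusion cells Itga5 (105 and 73.8 TPM), Itga6 (97.7 and 76.9) and Itga3 (86.2 and 53.2) overlapped. The TPM ratio of Itga3 to Itga6 was 0.338, 0.167, 0.882 and 0.691, and that of Itga5 to Itgav 1.62, 1.44, 4.65 and 4.05.

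Summed over the 18 alpha genes, TPM was 132 and 141 in wild-type and 332 and 257 in fusion libraries. RGD-binding chains held 27.5% and 31.0% of that sum in wild-type and 39.6% and 38.8% in fusion libraries. Laminin-binding chains held 57.2% and 56.8% in wild-type and 56.2% and 52.3% in fusion libraries, and among them Itga6 held 40.7%, 47.4%, 29.4% and 29.9% and Itga3 13.7%, 7.92%, 26.0% and 20.7%. The 8 beta genes summed to 150 and 143.5 TPM in wild-type and 165 and 140 TPM in fusion libraries, so the alpha sum exceeded the beta sum in the fusion libraries only. Itgb1 held 60.7% (parental), 37.2% (empty vector), 46.2% and 52.2% of the beta sum. An exact two-sided permutation test of 2 against 2 libraries cannot go below p = 0.333, which is the value for the alpha sum and for the RGD share.

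**Figure D2:**
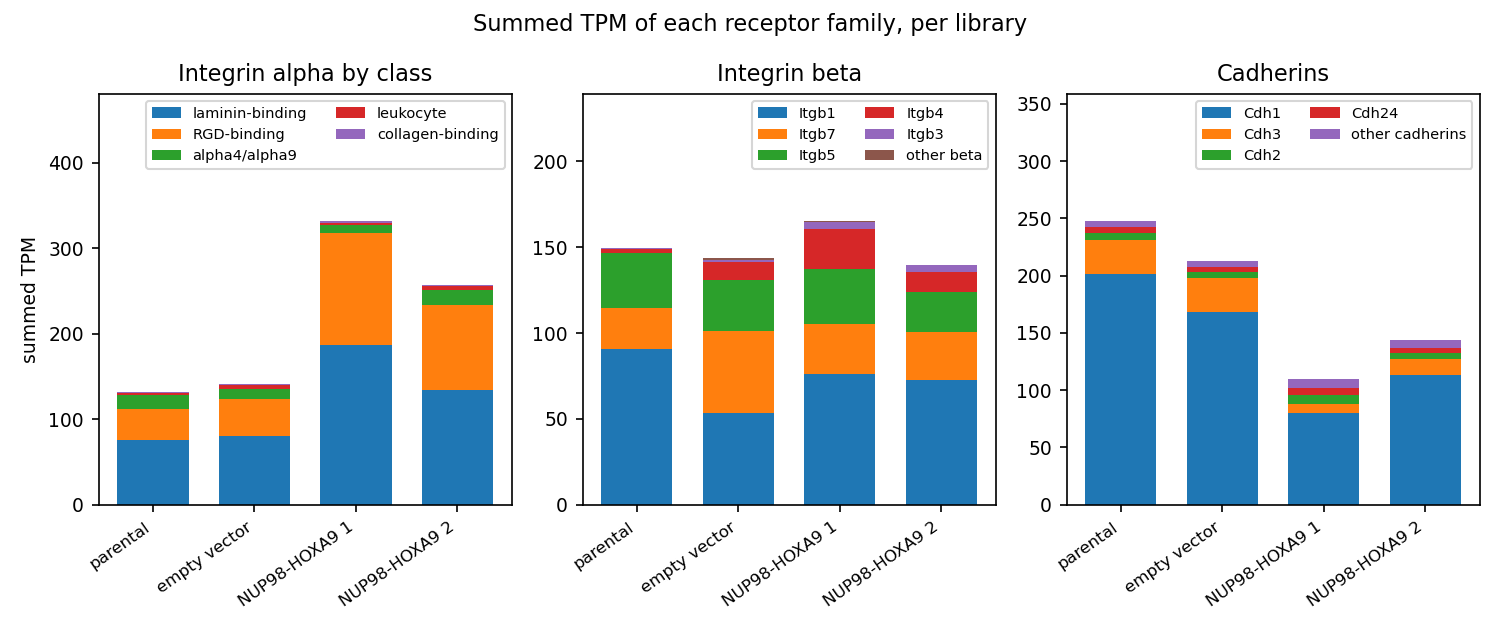
Summed TPM of the 18 integrin alpha, 8 integrin beta and 22 cadherin genes in each of the 4 libraries, stacked by ligand class or by gene. The alpha sum is 132 and 141 TPM in the wild-type and 332 and 257 in the fusion libraries, the cadherin sum 248 and 213 against 110 and 144.

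Cdh1 and Cdh3 had the highest TPM among cadherins, and both fusion libraries lay below both controls for each; only Cdh3 passed the edgeR test. They neighbour each other on the plus strand of chromosome 8, Cdh3 at chr8:106510891-106557297 and Cdh1 at chr8:106603351-106670246, with 46.05 kb between them. Cdh3, which encodes P-cadherin, read 96.7, 88.4, 23.1 and 40.8 CPM. It fell by 1.53 on the log2 scale (SE 0.29, adjusted p = 0.0397, edgeR). The call is near the threshold: the adjusted p was 0.0555 with chromosome medians removed (log2 -1.33), 0.0638 without the parental library, 0.102 without fusion replicate 1 and 5.30e-05 in DESeq2.

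Cdh1, which encodes E-cadherin, stood at 644 (parental), 496 (empty vector), 230 (fusion replicate 1) and 318 CPM (fusion replicate 2). The 2 fusion values were the lowest. Its log2 fold change was -1.06 (SE 0.23), with an adjusted p of 0.0563 in edgeR, 0.0260 without the empty-vector library and 0.00129 in DESeq2. With chromosome medians removed it was -0.85 (adjusted p = 0.0730), and against the empty vector alone -0.86 (adjusted p = 0.179). Within 500 kb of Cdh1 22 other genes were tested, and of these Cdh3 was called.

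Cdh2, which encodes N-cadherin, overlapped between groups at 17.3, 14.9, 21.0 and 12.3 CPM (log2 0.04, SE 0.33, adjusted p = 0.960, edgeR). Its fusion libraries fell on either side of both controls. The TPM ratio of Cdh1 to Cdh2 was 34.2 and 30.4 in the wild-type and 10.5 and 24.1 in the fusion libraries. Cdh1 remained the most abundant cadherin in all 4 libraries, with 81.3%, 79.1%, 72.8% and 78.5% of the cadherin TPM. The cadherin sum itself was 248 and 213 TPM in wild-type and 110 and 144 TPM in fusion libraries.

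Cdh4, R-cadherin of retina and kidney, stood at 1.302, 1.06, 8.82 and 3.56 CPM (log2 2.38, SE 0.56, adjusted p = 0.0692 in edgeR and 0.00560 in DESeq2). Both fusion libraries were higher, replicate 1 more so, and limma on log2 TPM plus 1 gave 0.64 (adjusted p = 0.357). Cdh24, a type II cadherin, stood at 12.3, 9.44, 13.9 and 10.6 CPM and overlapped. Cdh9 and Cdh10, type II cadherins of neurons, stood at 2.97, 3.93, 1.25 and 0.821 CPM (adjusted p = 0.103) and at 1.51, 1.22, 0.251 and 0.456 CPM (adjusted p = 0.118, edgeR). Cdh13, which is held in the membrane by a lipid anchor, stood at 1.25, 2.02, 0.501 and 0.547 CPM (adjusted p = 0.148). For these 3 low genes the fusion libraries were lower, without passing. Cdh23, known from hair cells of the ear, stood at 0.573, 1.11, 1.65 and 2.51 CPM (adjusted p = 0.244).

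Cdh15 (0.802 to 1.82 CPM) and Cdh22 (0.0530 to 2.19 CPM) overlapped between groups. The remaining 10 cadherins had too few counts to be tested. Cdh17, an intestinal and liver cadherin, had the highest single value among them, 2.06 CPM in fusion replicate 1 against 0.104, 0.159 and 0.274 in the other libraries. Cdh7, Cdh8, Cdh11, Cdh12, Cdh16, Cdh18, Cdh19, Cdh20 and Cdh26 stayed under 1 CPM in all 4 libraries.

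**Figure D3:**
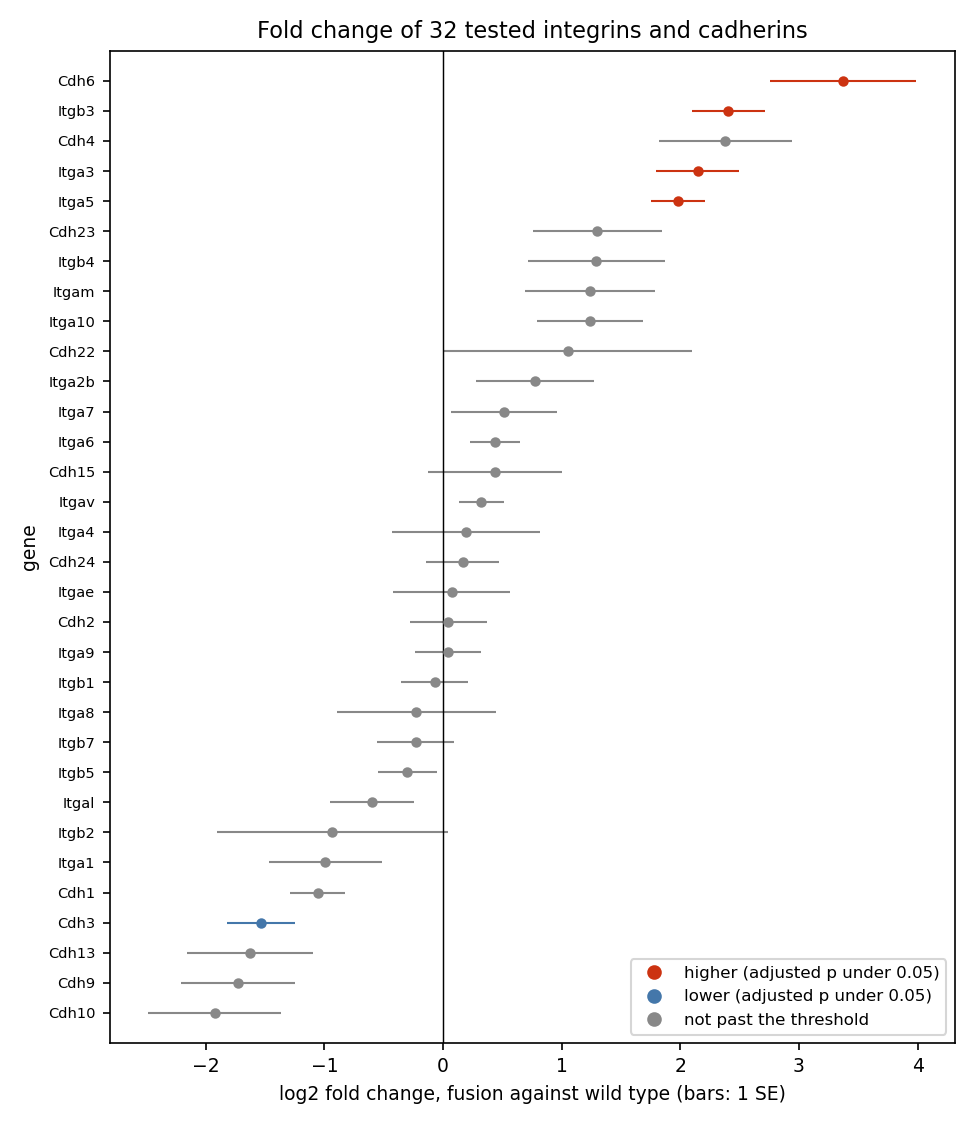
Log2 fold change of the fusion against the wild-type libraries for the 32 tested members, ordered by size, with bars of 1 SE (the absolute fold change divided by the square root of edgeR's F). Cdh6, Itgb3, Itga3 and Itga5 are past the threshold above 0 and Cdh3 below it, while Cdh1 and Cdh4 lie outside 0 with adjusted p of 0.0563 and 0.0692.

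The groups did not overlap for 18 of the 32 tested members. In 11 (34.4%) both fusion libraries lay above both controls, against 27.1% of all genes tested, and in 7 (21.9%) below, against 24.2%. These shares are near the background. Between the controls 6 of the 32 members (18.8%) differed at least 2-fold, against 12.1% of all genes. Between the fusion libraries 4 (12.5%) did, against 11.4%. All 5 called members lay farther from the wild-type mean in fusion replicate 1 than in replicate 2, as did 382 of 564 called genes (67.7%).

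The matrix side was examined with a list of 28 basement membrane genes. Of 24 tested, 5 rose and 0 fell in edgeR, with 3 higher without fusion replicate 1 and 3 against each control alone. These were Col4a2, Col4a1, Lama1 and Sparc, and Dag1, which was named after its values were seen. At an unadjusted p under 0.05 in edgeR, 14 were higher and 0 lower. Over all genes tested, the shares at that p were 12.7% and 7.41%, and 2.83% and 0.581% were called. Of the 14, Lamc3 and Col15a1 met the filter on low counts only through the fusion libraries. The list's median log2 fold change was 0.64, against -0.003 for all genes. Dag1 encodes dystroglycan, a laminin receptor that is not an integrin, and went from 181 and 182 to 454 and 382 CPM (log2 1.20, adjusted p = 0.0227, edgeR). Sparc, a collagen-binding matrix protein, went from 136 and 139.5 to 418 and 305 CPM. The rise on the log2 scale was 3.996 for Col4a1, 4.29 for Col4a2 and 2.17 for Lama1, the α1 chain of laminin.

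Among receptors of laminin, Itga3 rose, while Itga6 (adjusted p = 0.305) and Itga7 (adjusted p = 0.601, edgeR) did not pass. Among receptors of collagen, Itga1 and Itga10 were not called, Itga2 and Itga11 were not tested, and the 4 lay at or under 3.96 CPM. Of the laminin chains that α3β1 is known to bind, Lama5 overlapped between groups at 337.5, 478, 579 and 441 CPM (log2 0.32, adjusted p = 0.518), and Lama3 read 2.50, 1.80, 5.01 and 5.02 CPM (log2 1.22, adjusted p = 0.158, edgeR). Neither was called, whereas Lama1 was; Lama5 and Lama3 were named after their values were seen. The laminin γ1 chain gene Lamc1 stood at 440, 434, 786 and 649 CPM (log2 0.72, adjusted p = 0.0796, edgeR), and Col18a1, a basement membrane collagen, overlapped between groups at 580, 777, 764 and 683 CPM. Of 16 tested genes of other integrin ligands 0 were called in edgeR. At an unadjusted p under 0.05 in edgeR 4 were higher and 2 lower, against 12.7% and 7.41% of all genes. In DESeq2 3 were higher, against 5.57%. Fn1, which encodes the α5β1 ligand fibronectin, stood at 1701, 1634, 1069 and 1299 CPM (log2 -0.49, adjusted p = 0.186), and Spp1 (osteopontin) at 296, 297, 343 and 208 CPM. Vtn, which encodes vitronectin, was at most at 0.208 CPM.

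Inside the cell, 2 of 23 tested genes of the integrin adhesion complex rose and 0 fell in edgeR, against 2.83% and 0.581% of all genes. At an unadjusted p under 0.05 in edgeR 8 of the 23 were higher and 0 lower, against 12.7% and 7.41%. Without fusion replicate 1, 0 were called, and without either control 1. Tns1, a tensin that ties integrins to actin, went from 14.7 and 16.1 to 53.5 and 46.5 CPM (log2 1.70, adjusted p = 0.0153). Lims2, a partner of integrin-linked kinase, went from 0.365 and 0.318 to 4.51 and 2.28 CPM (log2 3.29, adjusted p = 0.0369), and met the filter on low counts only through the fusion libraries. Actn4 and Tns3, the most abundant of the list, differed by 0.36 and -0.49 (log2) and were not called.

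The catenins that cadherins bind showed no edgeR call among 12 tested genes with nectins included. At an unadjusted p under 0.05 in edgeR 2 were higher and 2 lower, against 12.7% and 7.41% of all genes. In DESeq2 1 was higher and 1 lower, against 5.57% and 2.64%. Ctnnb1, which encodes β-catenin, stood at 878, 909, 1005 and 945 CPM (log2 0.13, adjusted p = 0.737), and Ctnna1 at 547.5, 464, 706 and 626 CPM (log2 0.40, adjusted p = 0.280, edgeR). Over the 12 genes the fusion libraries lay above both controls in 5 and below both in 4, against 27.1% and 24.2% of all genes tested. The median log2 fold change of the 12 was -0.24. Jup, which encodes plakoglobin, read 244, 239, 190 and 110 CPM (log2 -0.69, adjusted p = 0.212), and Nectin3, a junction receptor, 47.7, 43.6, 16.0 and 29.7 CPM (log2 -0.999, adjusted p = 0.135 in edgeR and 0.0423 in DESeq2). Nectin1 read 28.0, 20.2, 62.3 and 47.7 CPM (log2 1.19, adjusted p = 0.0543 in edgeR and 0.00229 in DESeq2). Jup, Nectin3 and Nectin1 were named after their values were seen.

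Epithelial genes moved in both directions, with more lower than higher except among the edgeR calls. Of 28 tested, 2 rose and 2 fell in edgeR. At an unadjusted p under 0.05 in edgeR 7 were higher and 9 lower, against 12.7% and 7.41% of all genes. In DESeq2 3 were higher and 7 lower, against 5.57% and 2.64%. Both fusion libraries lay below both controls in 14 of the 28 and above them in 7, against 24.2% and 27.1% of all genes tested. The median log2 fold change was -0.50. Cldn6 and Cldn4, tight junction claudins, fell from 112 and 77.3 to 17.8 and 35.8 CPM (adjusted p = 0.0459) and from 133 and 114 to 32.2 and 56.0 CPM (adjusted p = 0.0418). Spint1, a membrane protease inhibitor, rose from 40.5 and 51.2 to 189 and 104 CPM (adjusted p = 0.0382), and Dsc2, a desmosomal cadherin outside the Cdh series, from 4.58 and 2.55 to 26.9 and 14.0 CPM (adjusted p = 0.0369). Tjp1, a tight junction scaffold among the most abundant of the list, stood at 158, 162, 232 and 211 CPM (log2 0.47, adjusted p = 0.179, edgeR) and was not called. In the claudins, as in Cdh1 and Cdh3, fusion replicate 1 was the lower of the fusion libraries. Without fusion replicate 1, 0 epithelial genes were higher and 0 lower, and without fusion replicate 2, 2 were higher and 8 lower. Without the parental library 2 were higher and 0 lower, and without the empty-vector library 0 were higher and 1 lower.

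Of 13 tested genes of mesenchymal transition, Zeb1 and Sparc rose and 0 fell in edgeR (median log2 fold change 0.23). Sparc is also in the basement membrane list. At an unadjusted p under 0.05 in edgeR 5 were higher and 1 lower, against 12.7% and 7.41% of all genes. In DESeq2 3 were higher and 0 lower, against 5.57% and 2.64%. Fn1, the most abundant of the list, was lower in both fusion libraries at 1701, 1634, 1069 and 1299 CPM (adjusted p = 0.186, edgeR). Zeb1, a repressor known to act on Cdh1, went from 9.74 and 11.5 to 33.4 and 26.5 CPM (log2 1.495, adjusted p = 0.0346, edgeR). Without fusion replicate 1, 0 of the list were called, and without the parental library 1 was higher. Without the empty-vector library 2 were higher and 1 lower.

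**Figure D4:**
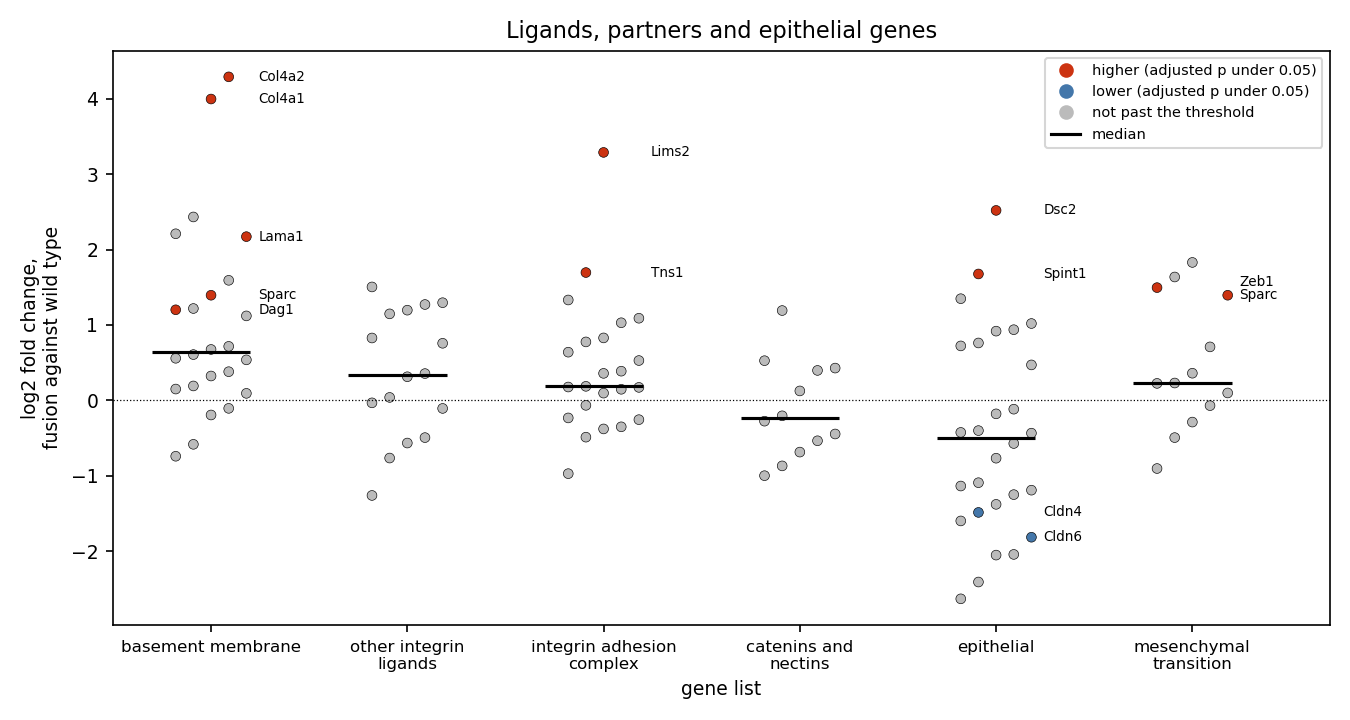
Log2 fold changes of the tested genes in 6 lists of ligands, intracellular partners and epithelial or mesenchymal genes, with bars at each list's median and called genes coloured and named. The basement membrane median lies at 0.64 and the epithelial median at -0.50, with called epithelial genes on both sides of 0.

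Parietal endoderm is a cell type that secretes basement membrane. Both fusion libraries lay above both controls in 12 of the 13 tested genes of a list of its markers, against 27.1% of all genes tested. Of 13 genes tested 11 rose and 0 fell, with 7 higher without fusion replicate 1 and 7 against each control alone. Over all genes tested, 2.83% were called higher and 0.581% lower. Sox7, Sox17 and Gata6, which are among the 11, met the filter on low counts only through the fusion libraries. The 13 genes summed to 402 and 381 CPM in the wild-type and 1614 and 1383 CPM in the fusion libraries. The list shares Sparc, Lamb1, Col4a1, Col4a2 and Lama1 with that of the basement membrane. These 5 held most of the sum in every library. The others were Plat, Thbd, Sox7, Sox17, Gata4, Gata6, Dab2 and Pth1r. Of these, Thbd overlapped between groups at 0.938, 0.477, 0.802 and 0.912 CPM (adjusted p = 0.845, edgeR). Whether the list marks parietal or other endoderm was not tested. The part of such cells in the rise of Itga5, Itga3, Itgb3 and Cdh6 was not tested. Of 7 tested fibroblast markers Pdgfrb rose, from 5.26 and 5.20 to 44.6 and 35.5 CPM, and the list summed to 45.8 and 32.5 CPM in the wild-type and 91.9 and 91.3 CPM in the fusion libraries. Leukocyte markers summed to 55.5, 129, 397 and 118 CPM, most of it from Laptm5. Endothelial markers summed to 46.7, 79.0, 32.3 and 41.0 CPM. Muscle markers summed to 10.1, 9.76, 30.7 and 19.5 CPM, most of it from Des (9.22, 8.70, 29.1 and 17.7 CPM).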

How the data were processed

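RNA was measured in 4 libraries of EB3 mouse embryonic stem cells (2 wild type and 2 with the fusion), prepared with a stranded kit, per the labels' protocols. For each library the authors deposited 1 gene table with expected counts, TPM and FPKM, per the file headers. The expected counts deposited are estimates, of which 9.16% to 10.2% are not whole. The TPM deposited by the authors served for levels between genes, and the FPKM deposited was not used. The submitters' processing notes name STAR 2.7.10a, RSEM 1.3.3, DESeq2 1.36.0 and the build GRCm38. Annotation release and strand setting: not given in the sources used here. Symbols and coordinates came from GENCODE vM21, which matched 55141 of 55401 identifiers. After rounding, the expected counts were compared with edgeR 4.0.16 in R 4.3.3 (TMM scaling, filterByExpr with a minimum count of 10, robust quasi-likelihood fit, 2 residual degrees of freedom, common biological coefficient of variation 25.6%), with Benjamini-Hochberg adjustment over 16511 genes. The SE is the absolute log2 fold change divided by the square root of F. The fit was first tested on simulated data. Members past the threshold or with a group mean of at least 10 CPM were given one by one. From each list came up to 4 called genes with the largest change and the 2 most abundant, of which 1 result is not reported here. The members and the 13 lists were chosen with earlier results of these data known. Alternatives were other scalings and filters, a non-robust fit, DESeq2 1.42.0, limma 3.58.1 on log2 TPM plus 1 or plus 0.1, each library left out, each control alone in a fit of 3 groups, and, added after seeing the data, chromosome medians removed. Tables and plots came from python 3.11.15, pandas 2.3.3 and matplotlib 3.10.9.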

Additional observations from a re-analysis of the deposited data

How the results depend on the processing

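The count of 4 higher members was 3 to 6 under other scalings, filters and tools and with chromosome medians removed. It was 1 to 5 when a library was left out, the 1 being Itga5 without fusion replicate 1. It was 0 against the empty vector alone and 0 against the parental line alone in edgeR, where 6 and 8 members were higher at an unadjusted p under 0.05 and where 82 and 104 genes in all were called. The count of 1 lower member was 0 with library totals, 0 by limma on TPM plus 1, 0 by limma on TPM plus 0.1, 0 with chromosome medians removed, 0 against the empty vector alone and 0 against the parental line alone. In those 6 fits 4 to 6 members were lower at an unadjusted p under 0.05. It was 2 by DESeq2 (Cdh1 and Cdh3), 3 without a filter (Cdh1, Cdh3 and Cdh9) and 0 to 2 when a library was left out. Without a filter 1946 genes were called in all, against 564. Itga5, Itga3, Itgb3, Cdh6, Cdh3, Cdh1 and Cdh4 kept their direction in all 15 alternatives. Cdh6 ranged in log2 fold change from 0.60 to 3.77 and Cdh4 from 0.64 to 2.89. Itgb1 changed sign in 6 and Itga9 in 5 alternatives, none of them called. Limma on TPM plus 0.1 put the median of all genes at 0.10. The basement membrane list had 8 higher genes by DESeq2, and the integrin adhesion complex list had 6. The cause of these shifts was not tested. No paired analysis was possible because the labels number only the fusion libraries. Where a fit leaves 1 library in a group, that library is assumed to vary like those of the other group. With 2 libraries a group and 1 of each kind of control, a difference between the controls cannot be told apart from the spread of wild-type cells. Genes under about 1 CPM, 15 of the 48 members in all 4 libraries, are limited by depth. Gene-level counts do not separate splice forms.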

Other observations

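Some receptors differed between the controls more than between the groups. Itgb4 stood at 8.80 CPM in the parental and 31.9 CPM in the empty-vector library, Itgb2 at 0.156 and 1.96 CPM, Itga8 at 1.09 and 4.51 CPM, and Cdh22 at 1.41 and 0.0530 CPM. Each control is 1 library, so these differences have no replicate check. The splicing regulator Esrp1 and the epithelial factor Grhl2, named after their values were seen, differed between the fusion libraries: Esrp1 read 71.6 (parental), 70.5 (empty vector), 1.05 (fusion replicate 1) and 45.8 CPM (fusion replicate 2), and Grhl2 56.1, 71.3, 1.454 and 19.0 CPM. Both were lower in both fusion libraries, with adjusted p of 0.538 and 0.166 in edgeR. The endothelial list held 1 call among 6 tested genes, a lower one, against 0.581% of all genes called lower. Tek, an angiopoietin receptor, fell from 17.6 and 45.99 to 5.26 and 6.38 CPM (adjusted p = 0.0429, edgeR). Without the empty-vector library, or without either fusion library, it was not called.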
